A study of Arabidopsis thaliana with 6 samples.

Results

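These 43 genes belong to enzyme families that remove superoxide and hydrogen peroxide inside plant cells, or supply such enzymes with metal or reducing power. They were chosen by gene identifier from the 30424 genes counted in the study, as 7 superoxide dismutases, 1 copper chaperone of these enzymes, 3 catalases, 7 ascorbate peroxidases, 5 monodehydroascorbate reductases, 8 glutathione peroxidases, 6 peroxiredoxins, 2 thioredoxins of the h type, 2 NADPH-thioredoxin reductases and 2 enzymes of ascorbate synthesis. The choice was made with earlier results of these data known. The libraries came from the dissected root meristem of Arabidopsis thaliana Col-0 seedlings aged 6 days and homozygous for a HYP2-GFP transgene, which both treatments carried and whose fluorescence guided the cut. The promoter of the transgene is not given in the labels. Seedlings were held for 1 h in liquid MS medium with water (Mock, 3 libraries) or with 100 nM RGF1 (3 libraries), and each RNA sample was a pool of 20 root sections. RGF1 is a secreted peptide hormone that sustains the root meristem, and the title of the series links it to meristem size through reactive oxygen species.

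Superoxide dismutases turn superoxide into hydrogen peroxide, and catalases, ascorbate peroxidases, glutathione peroxidases and peroxiredoxins each turn hydrogen peroxide into water. Ascorbate peroxidases use ascorbate as the electron donor, and monodehydroascorbate reductases recycle it. Peroxiredoxins and plant glutathione peroxidases draw their electrons from thioredoxins, which NADPH-thioredoxin reductases keep reduced. In the root meristem, the balance of superoxide and hydrogen peroxide is known to differ between dividing and elongating cells.

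The total count per library was between 5421243 and 9495012, and 16737 genes had enough reads to be tested. Levels are given as CPM, the count of a gene relative to the TMM-scaled library total, and as CPM per kb of exon where genes are compared with each other. Values of 3 libraries are listed in the order of replicates 1 to 3. Of 9 meristem markers, 8 were tested. The 9 summed to 327 to 446 CPM under Mock and 534 to 610 CPM under RGF1, with no overlap. The median log2 fold change of the 8 was 0.033, with 5 above 0, so the markers did not rise together. CYCB1-1, PLT1 and SHR had -0.74, -0.35 and -0.16. PLT2 had 1.23, the highest of the 8, and its RGF1 libraries lay above its Mock libraries with no overlap. The unadjusted edgeR p of PLT2 was 0.0285 and the adjusted p 0.549. PLT3, which encodes a transcription factor of the root stem cell niche, had the highest level of these markers under RGF1. It measured 121, 136 and 119.6 CPM with water and 273, 289 and 252 with the peptide. Its adjusted p was 0.0533 in edgeR, and 0.00295 with the replicate number as a block. It was 0.047 in limma voom and 0.00071 in DESeq2, and the highest in any alternative fit was 0.21. SCR and SHR, which specify the ground tissue, had 82.4 to 157 and 39.2 to 68.2 CPM, while the quiescent centre gene WOX5 had 2 counts in the 6 libraries together. The libraries also held transcripts of photosynthetic tissue: 12 such markers summed to 1468, 290 and 747 CPM in Mock replicates 1 to 3 and to 471, 73.8 and 745 CPM in RGF1 replicates 1 to 3. In bulk samples like these, a lower count can mean fewer cells of a type or less RNA per cell, and the counts cannot tell these apart. Of the 43 genes, 12 overlap a counted gene on the other strand, and the use of strand in counting is not given in the sources. The neighbours of CSD3 (AT5G18110, 252 to 870 counts per library), APX4 (AT4G09000, 1400 to 2503) and the untested APX5 (AT4G35980, 109 to 163) had more counts than these genes in each library. AT2G43340, beside GPX3, had 724, 1326 and 299 counts under Mock, above those of GPX3, and 308, 80 and 93 under RGF1, below them. AT1G63470, which overlaps GPX8 by 2 bp, was above GPX8 in some libraries. The values of CSD3, APX4, APX5 and GPX3 are uncertain because of these neighbours, and those of GPX8 less so, with 2 bp shared. Libraries with the same replicate number deviated together, so ratios within a number are given beside the main values.

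After 1 h of RGF1, 0 of the 39 tested genes were called higher and 0 were called lower in edgeR's quasi-likelihood test at an adjusted p below 0.05. Over all 16737 genes tested, 0.466% were called higher and 0.0299% lower. The lowest adjusted p of the 39 was 0.528, and DESeq2, limma voom and the fit with the replicate number as a block each also called 0. At an unadjusted edgeR p below 0.05, 2 genes were higher, the catalase gene CAT1 and the ascorbate synthesis gene VTC5, and 0 were lower, against 4.26% and 3.50% of all genes tested. The number higher was 0 without RGF1 replicate 1, 1 without Mock replicate 1 or Mock replicate 3, and 4 without RGF1 replicate 3. Leaving out replicate 2 of either group, or RGF1 replicate 3, gave 1 lower gene. The 3 RGF1 libraries lay above the 3 Mock libraries for 3 genes (CSD1, TRXh5 and VTC5) and below them for 1 (MDAR1). These are 7.69% and 2.56% of the 39, beside 7.30% and 6.18% of all genes tested.

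The size and precision of the fold changes differed between genes, from -1.54 for PRXQ to 1.14 for CAT1 on the log2 scale. The median log2 fold change of the 39 genes was 0.096, with 23 above 0 (59.0%) and 16 below. That of all genes tested was -0.012, with 48.8% above 0. The median size of the change, without its sign, was 0.24 for these genes and 0.33 for all genes tested. For 17 of the 39 genes (43.6%, beside 31.3% of all genes tested), the 95% interval of the log2 fold change lay within -1 and 1, so that a 2-fold change in either direction was outside it. For the other 22 the interval reached past 2-fold on at least 1 side, so that a change of that size was within it.

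**Figure D1:**
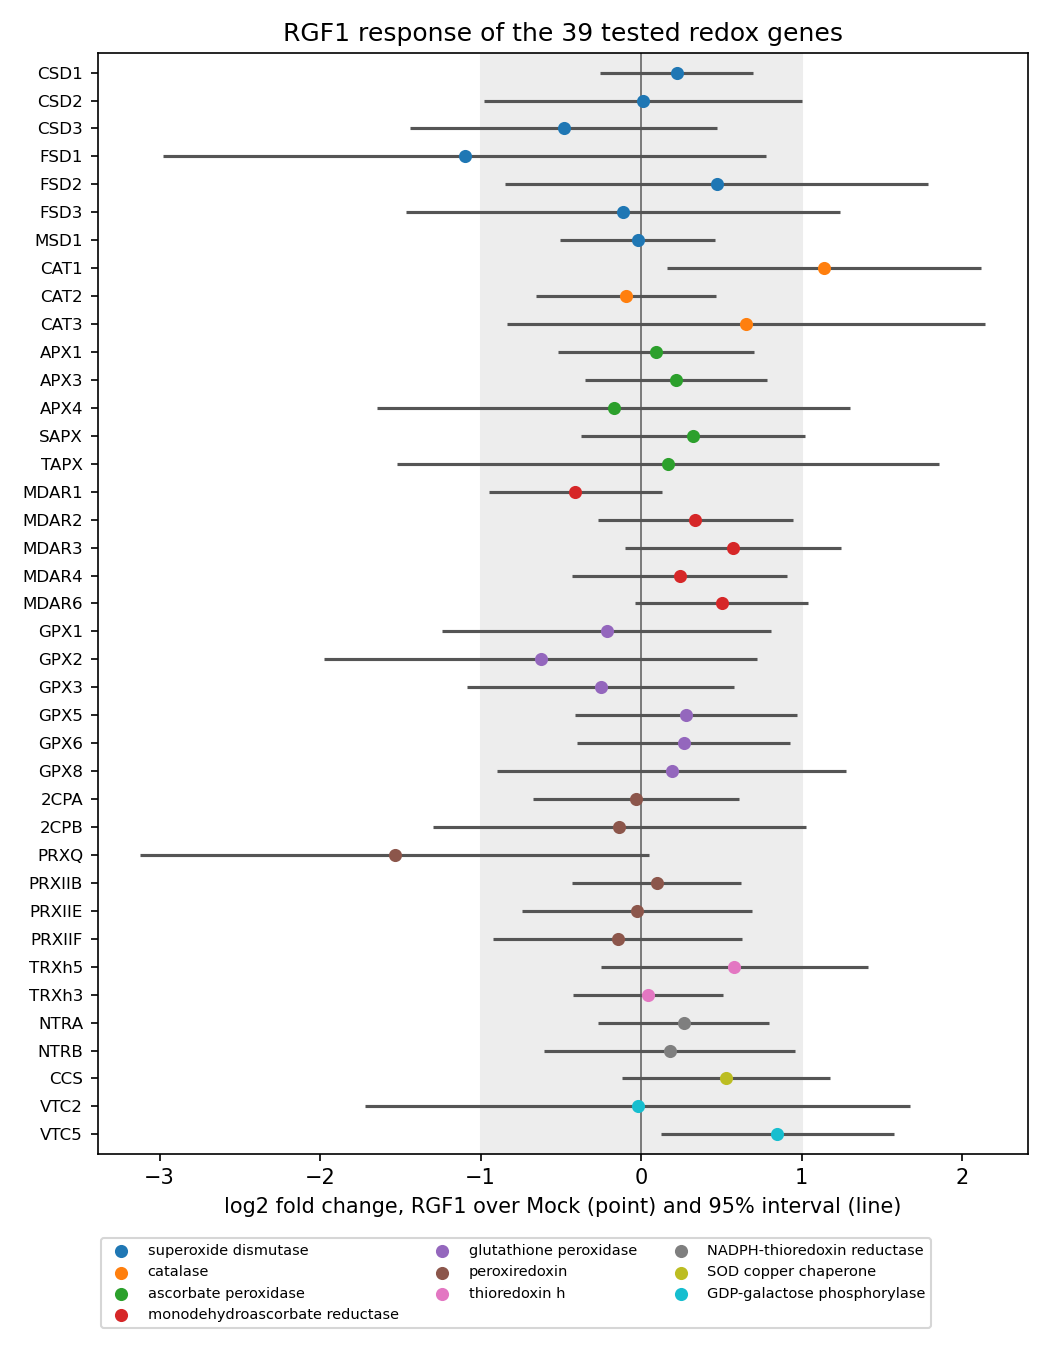
Log2 fold change of RGF1 over Mock (horizontal axis) for each of the 39 tested genes, with points coloured by enzyme class and lines for the 95% interval of the edgeR fit over 6 libraries. The grey band marks changes below 2-fold. The intervals of CAT1 and VTC5 lie above 0 before adjustment for multiple tests, and those of FSD1 and VTC2 are the widest.

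In each class a few genes held most of the transcripts. Ranked by mean CPM per kb in the Mock libraries, the order began with the cytosolic superoxide dismutase CSD1 at 422 ± 41.2 (SD, n = 3) and the cytosolic ascorbate peroxidase APX1 at 333 ± 88.0. These were followed by the thioredoxin reductase NTRA at 286 ± 42.1, the reductase MDAR2 at 261 ± 84.3, the thioredoxin TRXh3 at 242 ± 9.60 and the mitochondrial superoxide dismutase MSD1 at 233 ± 18.9. From CSD1 to MSD1, the ranges of mean ± SD of neighbours in this order overlapped, so the order of neighbours was uncertain. At the other end, the ascorbate peroxidase genes APX2 and APX5 and the plastid glutathione peroxidase gene GPX7 were under 0.2 CPM per kb in the Mock libraries, and the thylakoid ascorbate peroxidase gene TAPX had 1.80 ± 0.582.

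**Figure D2:**
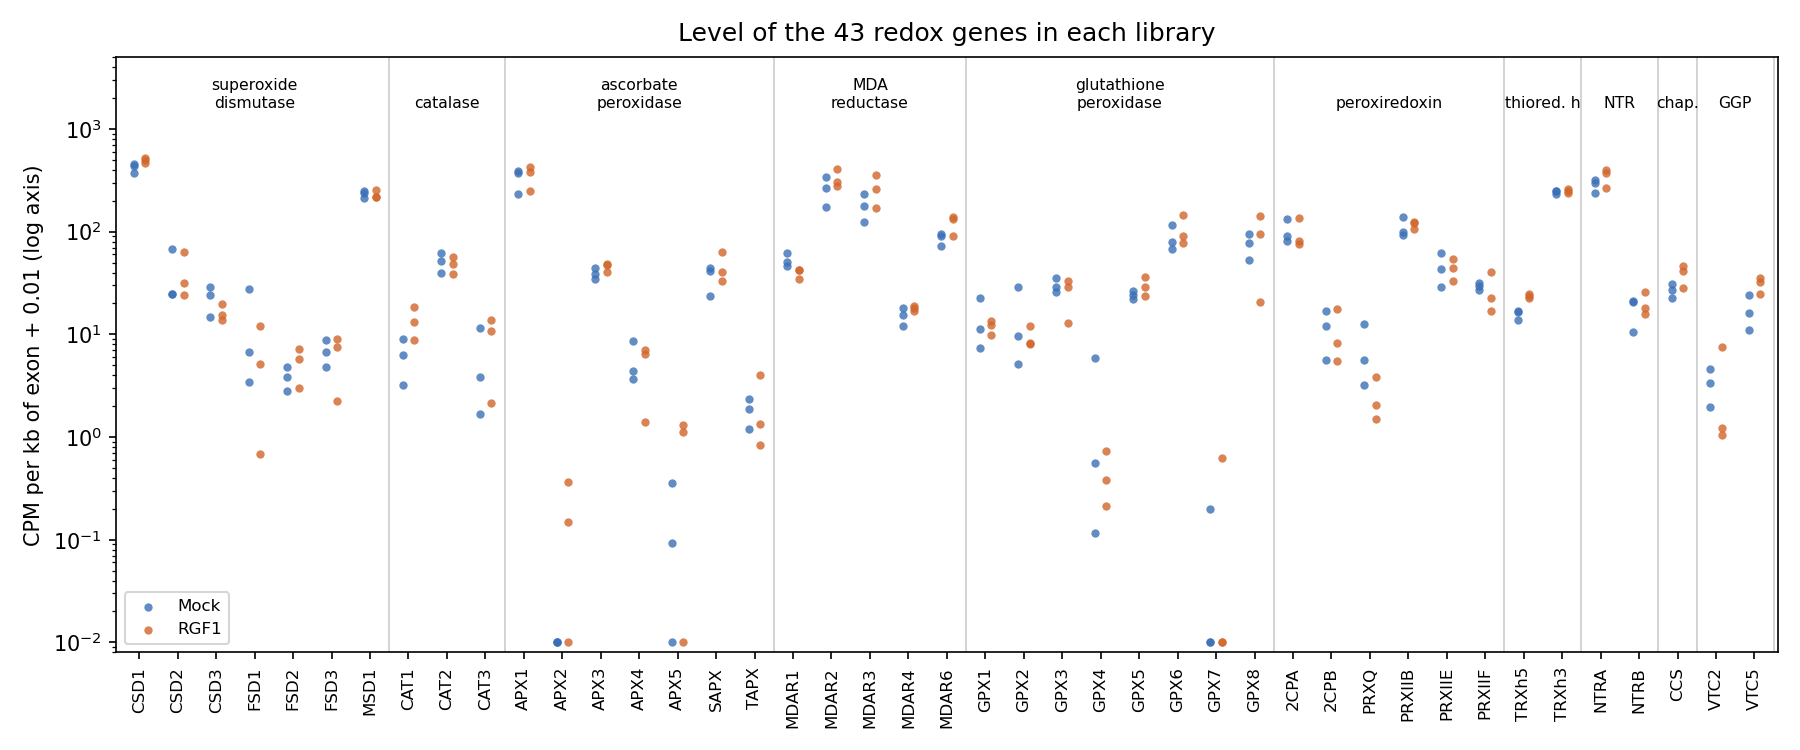
Level of each of the 43 genes in each library, as CPM per kb of exon plus 0.01 on a log axis, with Mock libraries in blue and RGF1 libraries in orange. Points at 0.01 are libraries with 0 counts. Colours overlap for most genes, and within most classes the levels span over 10-fold.

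The superoxide dismutases were led by CSD1 (AT1G08830, chromosome 1, 2827060 to 2829315 in TAIR10.1) and MSD1 (AT3G10920, chromosome 3, 3417940 to 3419892), which had 57.0% ± 3.49 and 31.6% ± 3.41 (SD, n = 3) of the CPM per kb of the class in the Mock libraries. CSD1 measured 382, 328 and 396 CPM with water and 407, 452 and 432 with the peptide. The groups did not overlap, but the gap was narrow. Its log2 fold change was 0.22 ± 0.22 (SE), with a 95% interval of -0.25 to 0.70 and edgeR adjusted p = 0.897. MSD1 reached 229.5, 269 and 259 CPM in Mock replicates 1 to 3, against 276, 235 and 235 in those with RGF1, with a 95% interval of -0.50 to 0.46. For both genes the data thus limited any change to under 2-fold.

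The plastid copper/zinc enzyme CSD2 varied with the replicate number more than with the treatment. Its CPM were 25.9, 26.1 and 72.0 under Mock and 33.4, 25.2 and 66.3 in the RGF1 libraries, so that replicate 3 was the highest in both groups. The iron superoxide dismutase FSD1, which in Arabidopsis takes over from the copper/zinc enzymes when copper is scarce, stood at 10.5, 43.2 and 5.33 CPM under Mock and 1.04, 18.8 and 7.91 under RGF1. Replicate 2 was the highest in both groups, and the log2 fold change of -1.10 ± 0.87 (SE) turned to 0.22 without Mock replicate 2. The peroxisomal CSD3 and the plastid FSD2 and FSD3, of which FSD2 and FSD3 serve the plastid nucleoid, had log2 fold changes of -0.48, 0.47 and -0.11, all with intervals past 2-fold.

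CSD1, CSD2 and the chaperone CCS, which inserts copper into both enzymes, are known targets of the miRNA miR398 in Arabidopsis. The mature miRNAs and the best paired stretch of each transcript are shown because they tie 3 of the genes to 1 regulator. The miRNA lines have the seed, bases 2 to 8, in capitals, and the target lines have in capitals the bases that form Watson-Crick pairs with miR398b. All are written 5′ to 3′ as RNA, from the RefSeq annotation of TAIR10.1.
miR398a-3p: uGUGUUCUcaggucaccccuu
miR398b-3p and miR398c-3p: uGUGUUCUcaggucaccccug
CSD1: aAGGGGUuuCCUGAGAuCACA
CSD2: ugcGGGUGACCUGgGAaACAuA
CCS: auuGGGaGACCUGgGAACACu

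The CSD1 stretch lies in the 5′ UTR and is joined across an intron, those of CSD2 (chromosome 2, 12015572 to 12015593) and CCS (chromosome 1, 4267521 to 4267541) lie in the coding sequence, and the CSD2 stretch holds 1 unpaired base. A mismatch or an unpaired base was scored 1 and a G:U pair 0.5. The CSD1 and CSD2 stretches scored 4.0, a score reached or bettered by 0.0534% of 35550 annotated genes, and the CCS stretch scored 5.5, which 2.40% of genes reached. A match of letters is a description and says nothing of cleavage in these samples. The counts of the miR398 precursor genes were 0, except for 2 counts of MIR398c in RGF1 replicate 1, and these libraries do not measure mature miRNAs.

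The 3 transcripts with these stretches did not share a pattern over the libraries. CCS (AT1G12520, chromosome 1, 4267074 to 4268982) measured 31.9, 38.7 and 43.9 CPM with water and 66.3, 58.9 and 39.9 with the peptide. RGF1 replicates 1 and 2 were above the Mock libraries and RGF1 replicate 3 was among them. Its log2 fold change was 0.53 ± 0.30 (SE; 95% interval -0.12 to 1.18; edgeR adjusted p = 0.737). The values of CSD1 were close to each other in the 6 libraries, and those of CSD2 followed replicate 3.

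Of the 3 catalases, 0 were called, and CAT2 had the most transcripts. CAT2 (AT4G35090, chromosome 4, 16700312 to 16703504), which in leaves removes the peroxide of photorespiration, held 81.5% ± 6.04 (SD, n = 3) of the class under Mock and 69.3% ± 8.97 in the RGF1 libraries. It reached 170.3, 109 and 145 CPM in Mock replicates 1 to 3, against 135, 106 and 156 in those with RGF1, which overlapped. Its log2 fold change was -0.095 ± 0.26 (SE), with a 95% interval of -0.66 to 0.47.

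CAT1 (AT1G20630, chromosome 1, 7146636 to 7150180) encodes a catalase known to respond to abscisic acid and stress. It stood at 20.0, 7.16 and 14.0 CPM under Mock and 41.5, 19.7 and 29.4 under RGF1. Mock replicate 1 was just above RGF1 replicate 2, so the groups overlapped, but within a replicate number RGF1 was 2.07, 2.75 and 2.11 times Mock. The log2 fold change was 1.14 ± 0.45 (SE), with a 95% interval of 0.16 to 2.12. The unadjusted edgeR p was 0.0260 and the adjusted p 0.532, and with the replicate block the adjusted p was 0.139. The share of CAT1 in the class was 9.44% ± 2.81 (SD, n = 3) under Mock and 19.1% ± 3.42 under RGF1. CAT3, its upstream neighbour on the same strand and a clock-regulated gene, measured 5.68, 13.1 and 39.2 CPM with water and 47.1, 7.19 and 36.4 with the peptide. Its ratio within replicate 1 was 8.29 and those within replicates 2 and 3 were 0.549 and 0.927.

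**Figure D3:**
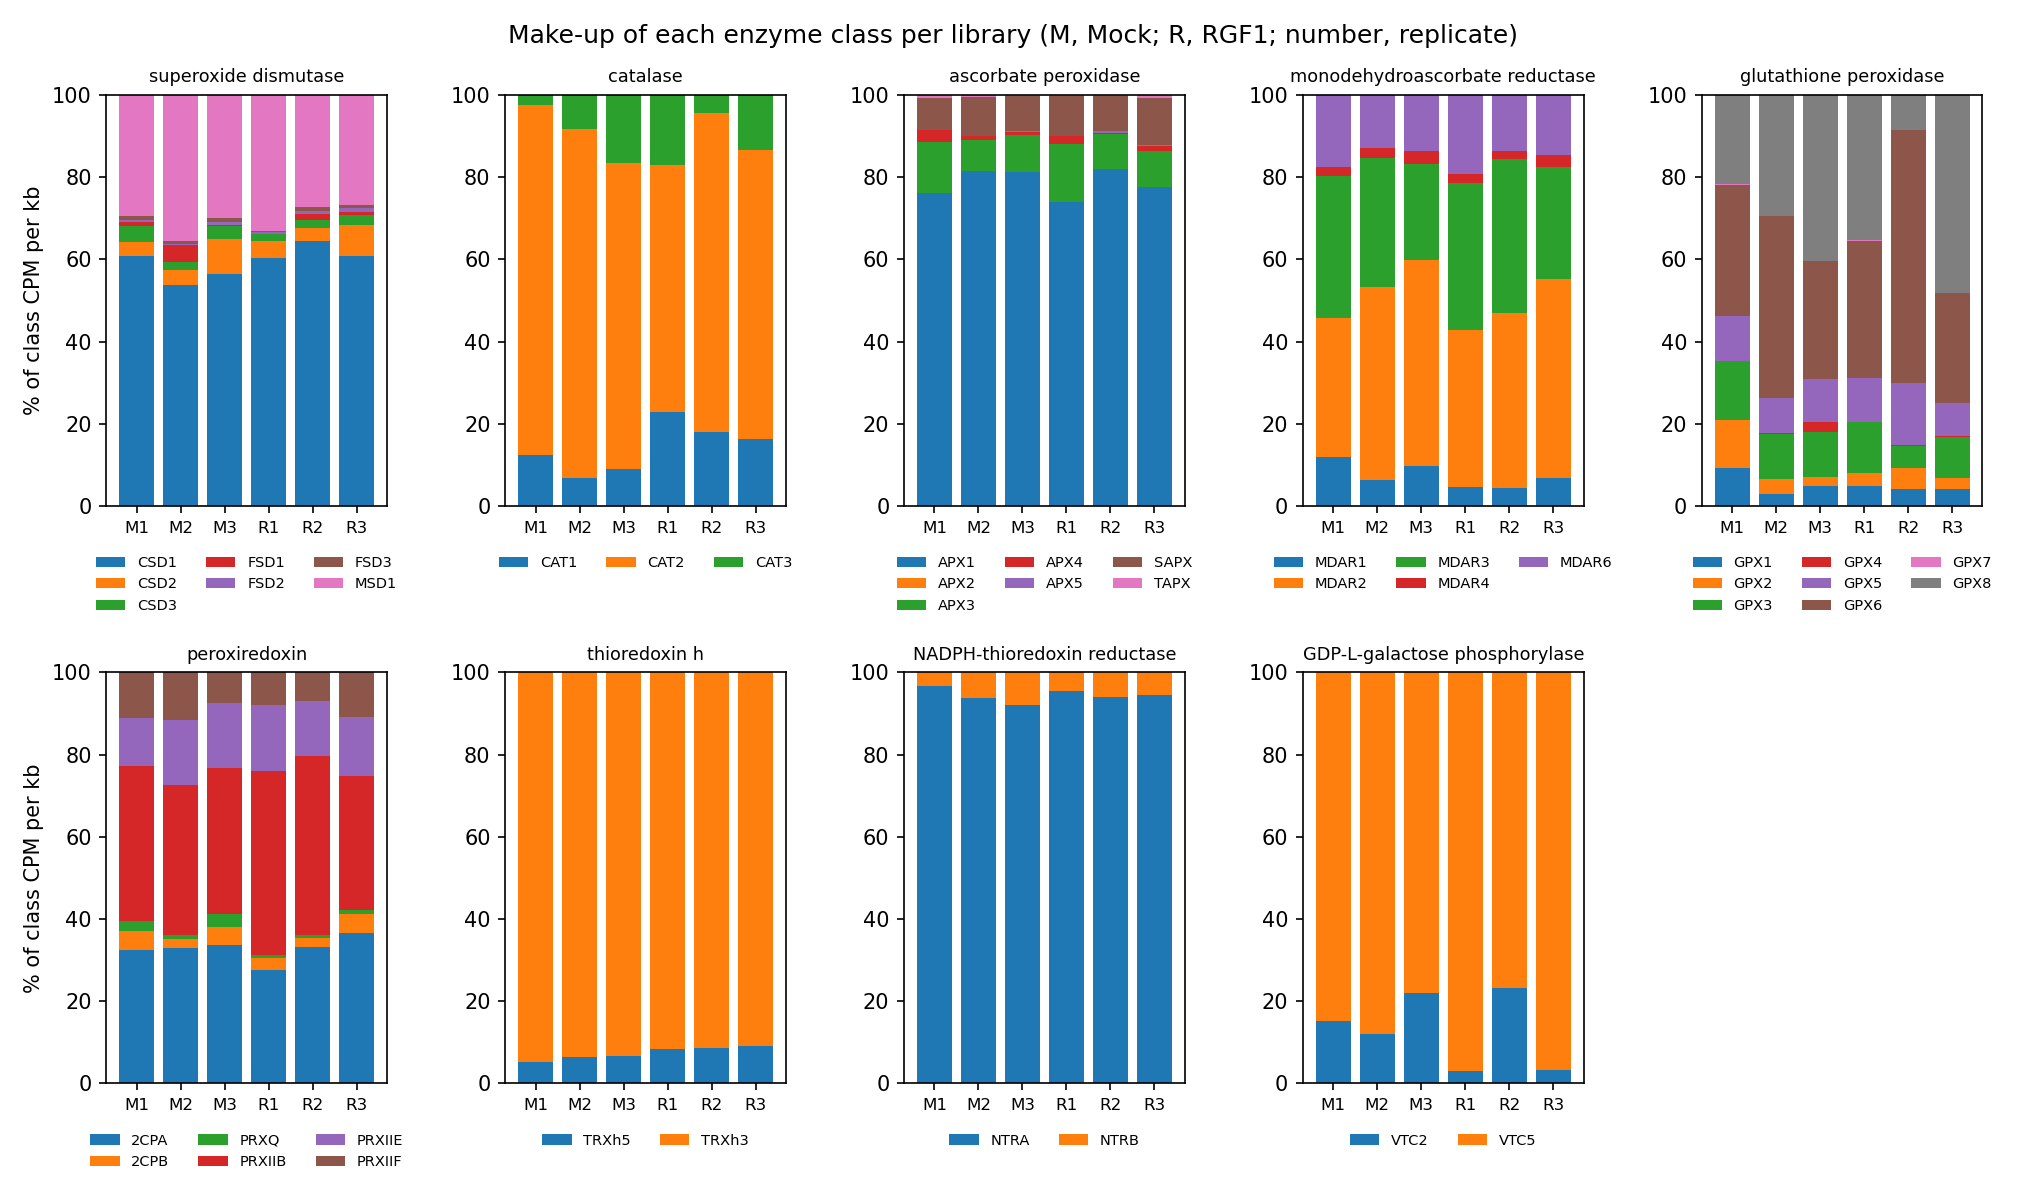
Share of each gene in the summed CPM per kb of its class (vertical axis, percent) in each library, for the 9 classes with more than 1 gene. M and R stand for Mock and RGF1 and the number for the replicate. CSD1 and MSD1, CAT2, APX1, TRXh3 and NTRA hold most of their classes in the 6 libraries, and the share of CAT1 is larger in the 3 RGF1 libraries than in the 3 Mock libraries.

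The ascorbate peroxidases were led by APX1 (AT1G07890, chromosome 1, 2437281 to 2439665), with 79.6% ± 3.03 (SD, n = 3) of the class under Mock and 77.8% ± 3.92 in the RGF1 libraries. It reached 415, 669.5 and 703 CPM in Mock replicates 1 to 3, against 449, 687 and 769 in those with RGF1. Replicate 1 was the lowest in both groups, and within a replicate number the ratio of RGF1 to Mock was 1.08, 1.03 and 1.09. The 95% interval of its log2 fold change was -0.52 to 0.70. The peroxisomal membrane enzyme APX3 and the stromal and mitochondrial enzyme SAPX had log2 fold changes of 0.22 ± 0.26 and 0.32 ± 0.32 (SE). APX4, a thylakoid lumen protein also named TL29, and TAPX were below 15 CPM in each library and overlapped between groups. APX2, the heat- and light-stress-induced isoform, had 0 counts under Mock and 0, 1 and 2 in the RGF1 libraries, and APX5 had 0, 1 and 3 counts against 0, 12 and 8. Neither was tested.

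Of the 5 monodehydroascorbate reductases, MDAR2, MDAR3, MDAR4 and MDAR6 had positive fold changes and MDAR1 a negative one, and 0 passed the test. The cytosolic enzymes MDAR2 (AT5G03630, chromosome 5, 922048 to 924728) and MDAR3 (AT3G09940, chromosome 3, 3056375 to 3059244) and the plastid and mitochondrial MDAR6 (AT1G63940, chromosome 1, 23729875 to 23733974) together held most of the class. MDAR3 stood at 284, 367 and 196 CPM under Mock and 417, 572 and 269.9 under RGF1. The groups overlapped, because the RGF1 library of replicate 3 lay below Mock replicates 1 and 2, yet each RGF1 library was above the Mock library of its number, by 1.47, 1.56 and 1.37 times. The log2 fold change was 0.57 ± 0.31 (SE; 95% interval -0.10 to 1.25), with edgeR adjusted p = 0.721. With the replicate block it was 0.55 ± 0.14 (SE) with edgeR adjusted p = 0.0840, the lowest of the 39 genes in that fit.

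MDAR6 measured 209, 217 and 167 CPM with water and 325, 305 and 212 with the peptide, ratios of 1.55, 1.40 and 1.27 within a number, and the groups overlapped through RGF1 replicate 3. Its log2 fold change was 0.50 ± 0.25 (SE), with edgeR adjusted p of 0.677, and of 0.176 with the block. MDAR2 reached 307, 602 and 461 CPM in Mock replicates 1 to 3, against 488, 713 and 530.4 in those with RGF1, ratios of 1.59, 1.18 and 1.15, and the groups again overlapped. Its edgeR adjusted p was 0.861, and 0.297 with the block. The peroxisomal MDAR4 had a log2 fold change of 0.24 ± 0.31 (SE).

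MDAR1 (AT3G52880, chromosome 3, 19601167 to 19604597), an enzyme of peroxisomes and the cytosol, stood apart from these. It stood at 119.6, 89.2 and 98.0 CPM under Mock and 66.8, 81.8 and 82.3 under RGF1, with no overlap. MDAR1 had a log2 fold change of -0.41 ± 0.25 (SE; 95% interval -0.95 to 0.13) with edgeR adjusted p = 0.771. Its share of the class was 9.27% ± 2.83 (SD, n = 3) under Mock and 5.29% ± 1.30 in the RGF1 libraries. The summed level of the 5 genes was 1069 ± 209.6 CPM under Mock and 1389 ± 292 CPM in the RGF1 libraries (SD, n = 3), which overlapped.

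With the replicate number as a block, 5 of the 39 genes were higher at an unadjusted edgeR p below 0.05 (CAT1, MDAR2, MDAR3, MDAR6 and VTC5) and 0 were lower, beside 6.48% and 6.12% of all genes tested. RGF1 was above Mock within each of the 3 numbers for 13 of the 39 genes, which is 33.3%, and below within each for 2, which is 5.13%. Over all genes tested these shares were 17.4% and 17.9%. None of the 5 was called after adjustment in that fit, in which 1.24% of all genes were called higher and 0.562% lower.

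**Figure D4:**
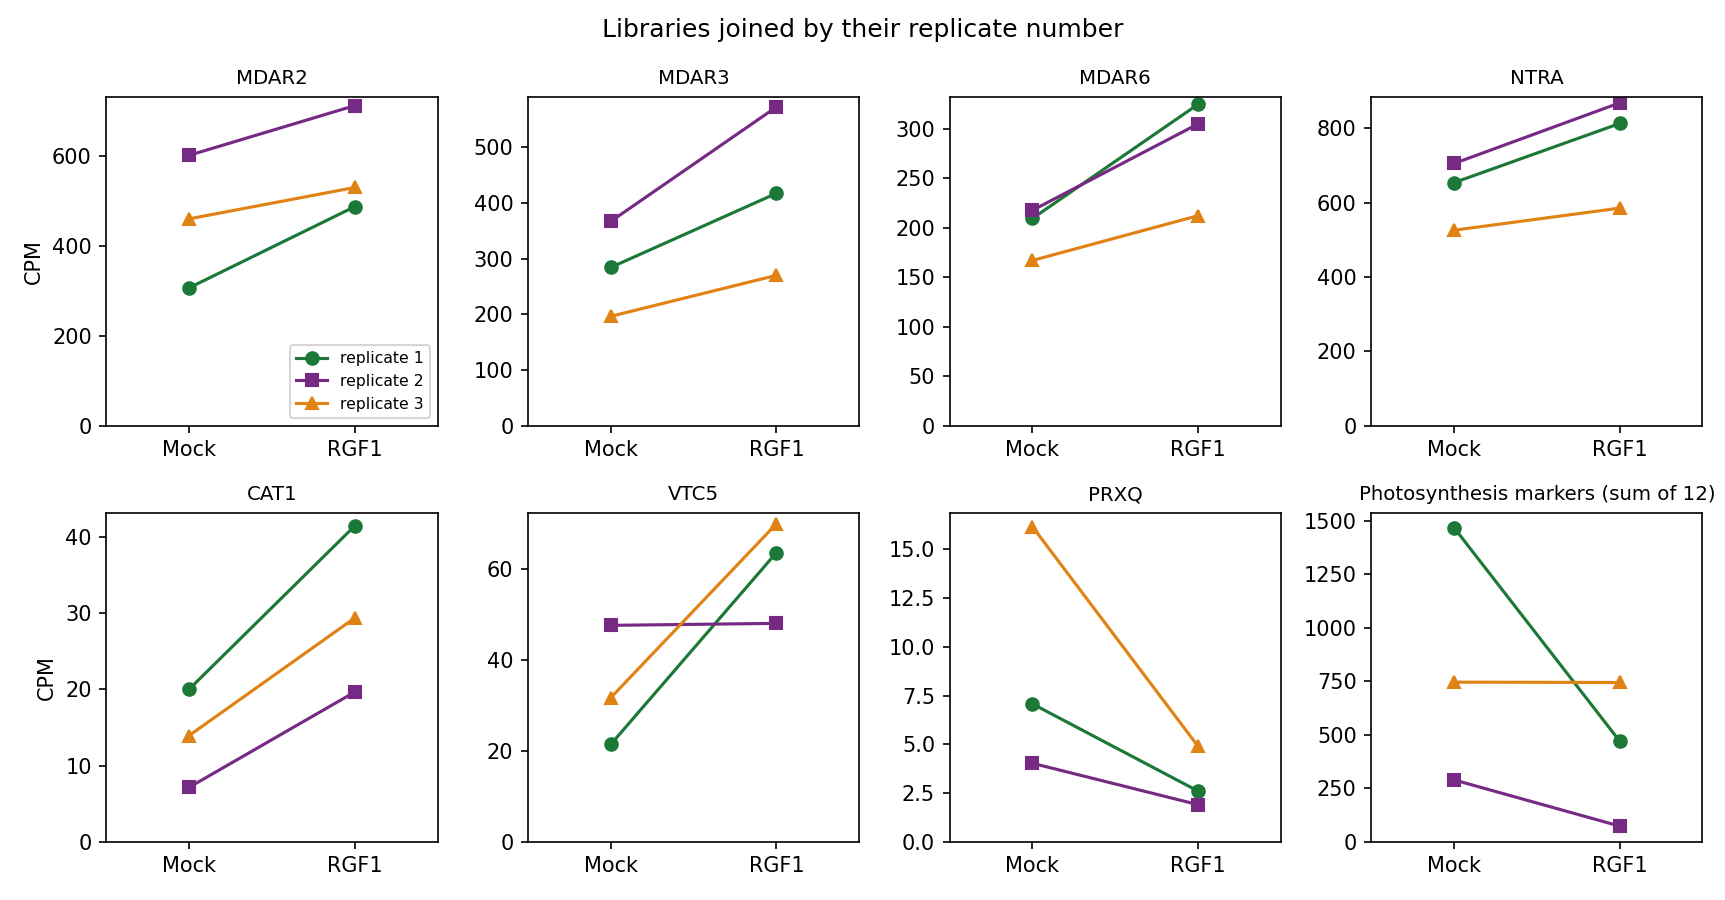
CPM in the Mock and RGF1 libraries, joined by replicate number, for 7 of the genes and for the sum of 12 photosynthesis markers. The 3 lines slope upward for MDAR2, MDAR3, MDAR6, NTRA and CAT1, and downward for PRXQ. The line of VTC5 in replicate 2 and that of the marker sum in replicate 3 are almost level.

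GDP-L-galactose phosphorylase commits sugar nucleotides to ascorbate synthesis, and VTC2 and VTC5 are its genes. In leaves VTC2 is the main one, whereas in these libraries VTC5 (AT5G55120, chromosome 5, 22369007 to 22371867) had 83.6% ± 5.14 (SD, n = 3) of their CPM per kb under Mock treatment. VTC5 measured 21.4, 47.6 and 31.7 CPM with water and 63.6, 48.0 and 69.9 with the peptide. The groups did not overlap, but RGF1 replicate 2 was almost level with Mock replicate 2. In log2 units, RGF1 exceeded Mock by 0.85 ± 0.34 (SE; 95% interval 0.12 to 1.57), the unadjusted edgeR p was 0.0253, the adjusted p 0.528, and 0.236 with the block. VTC2 (AT4G26850) reached 4.29, 7.28 and 10.0 CPM in Mock replicates 1 to 3, against 2.29, 16.3 and 2.64 in those with RGF1. Of the 6 other genes of ascorbate synthesis tested, 0 were called, with a median log2 fold change of 0.16, and GME, which makes GDP-L-galactose, had 0.37 ± 0.24 (SE).

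Of the 8 glutathione peroxidases, 6 were tested and 3 of these had positive fold changes. GPX6 (AT4G11600, chromosome 4, 7009769 to 7011406), found in mitochondria and the cytosol, and GPX8 (AT1G63460, chromosome 1, 23534946 to 23536467), found in the cytosol and nucleus, held 35.0% ± 8.18 and 30.5% ± 9.35 (SD, n = 3) of the class in the Mock libraries. GPX6 stood at 80.6, 119 and 68.8 CPM under Mock and 92.3, 149.9 and 80.4 under RGF1. Replicate 2 was the highest in both groups, and within a number RGF1 was 1.15, 1.26 and 1.17 times Mock. GPX8 measured 43.5, 63.0 and 76.8 CPM with water and 77.6, 16.7 and 115 with the peptide, so that RGF1 replicate 2 was the lowest of the 6 libraries and RGF1 replicate 3 the highest.

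Their log2 fold changes were 0.27 ± 0.31 and 0.19 ± 0.50 (SE), and that of GPX8 was -0.092 with the replicate block. GPX5 and GPX3 were between 13.9 and 41.1 CPM and overlapped, with intervals of -0.41 to 0.97 and -1.08 to 0.58. GPX3 is known to act in abscisic acid signalling in guard cells. The log2 fold changes of GPX2 and of the plastid GPX1 were -0.63 ± 0.62 and -0.21 ± 0.47 (SE). Both rested on Mock replicate 1, with 25.7 CPM of GPX2 and 28.3 CPM of GPX1, and were 0.35 and 0.36 without it. GPX4 had 1, 5 and 38 counts under Mock and 2, 5 and 2 in the RGF1 libraries, and GPX7 had 3, 0 and 0 against 10, 0 and 0.

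The peroxiredoxins were led by the cytosolic PRXIIB (AT1G65980, chromosome 1, 24559253 to 24560980) and the plastid 2CPA (AT3G11630, chromosome 3, 3672036 to 3674159), with 36.5% ± 1.20 and 33.0% ± 0.659 (SD, n = 3) of the class in the Mock libraries. PRXIIB reached 124, 131 and 183 CPM in Mock replicates 1 to 3, against 165, 142 and 162 in those with RGF1. 2CPA stood at 94.3, 106 and 155 CPM under Mock and 90.0, 95.6 and 161 under RGF1. Both ranges overlapped, and the 95% intervals of the log2 fold changes were -0.43 to 0.62 and -0.68 to 0.61. The plastid PRXIIE and the mitochondrial PRXIIF had log2 fold changes of -0.027 and -0.15.

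PRXQ (AT3G26060, chromosome 3, 9524590 to 9526501), a plastid peroxiredoxin of photosynthetic tissue, had the lowest fold change of the 39 genes. It measured 7.07, 4.03 and 16.2 CPM with water and 2.60, 1.91 and 4.90 with the peptide. The groups overlapped through RGF1 replicate 3, and within a number the ratio of RGF1 to Mock was 0.368, 0.474 and 0.303. PRXQ had a log2 fold change of -1.54 ± 0.73 (SE; 95% interval -3.12 to 0.052) with edgeR adjusted p = 0.653. The 12 photosynthesis markers, in the same order of libraries, summed to 1468, 290 and 747 CPM and to 471, 73.8 and 745 CPM, and the median of their log2 fold changes was -1.05, with 0 of 12 called. Their part in the value of PRXQ was not tested.

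For TRXh3 and TRXh5, both h-type thioredoxins, the replicates of each gene were close to each other within a group. TRXh3 (AT5G42980, chromosome 5, 17242607 to 17244231), an abundant h-type thioredoxin, reached 255, 258 and 239 CPM in Mock replicates 1 to 3, against 259, 270.1 and 246 in those with RGF1. The log2 fold change was 0.043 ± 0.22 (SE) with a 95% interval of -0.43 to 0.51. TRXh5 (AT1G45145, chromosome 1, 17074942 to 17076417), which in Arabidopsis reduces the immune regulator NPR1, was far lower, at 6.12% ± 0.705 (SD, n = 3) of the CPM per kb of the pair under Mock and 8.65% ± 0.408 in the RGF1 libraries. It stood at 11.7, 14.1 and 14.0 CPM under Mock and 19.0, 20.6 and 20.0 under RGF1. The groups did not overlap and the values within a group were close, but the model's log2 fold change of 0.58 ± 0.38 (SE; 95% interval -0.25 to 1.41) did not pass (edgeR adjusted p = 0.805).

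NTRA (AT2G17420, chromosome 2, 7564240 to 7566601) and NTRB (AT4G35460, chromosome 4, 16842174 to 16844359) encode the NADPH-thioredoxin reductases of the cytosol and mitochondria, and their transcripts were 83.8% identical over 998 aligned bp. NTRA held 94.1% ± 2.31 (SD, n = 3) of their CPM per kb in the Mock libraries. It measured 654, 706 and 526 CPM with water and 813, 869 and 586 with the peptide, with RGF1 1.24, 1.23 and 1.11 times Mock within a number. The groups overlapped through RGF1 replicate 3, and the log2 fold change was 0.27 ± 0.25 (SE; 95% interval -0.27 to 0.80; edgeR adjusted p = 0.880). NTRB reached 18.9, 37.9 and 37.3 CPM in Mock replicates 1 to 3, against 32.3, 45.9 and 28.1 in those with RGF1, which overlapped.

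Grouped by the compartment where the enzyme is best known, the 13 tested genes of the cytosol had a median log2 fold change of 0.19, with 11 above 0 and 2 below. The 14 of the plastid had -0.029, with 6 above 0 and 8 below, and the 7 of the peroxisome had 0.22, with 4 above 0 and 3 below. The 3 of the mitochondrion had a median of -0.020, with 1 above 0. GPX3 and GPX5, tested but not assigned to a compartment, had a median of 0.015, with 1 above 0. Over all genes tested, 48.8% were above 0. Several of these proteins have a second location, and the difference between compartments was not tested. Of the 14 plastid genes, 6 (CSD2, FSD2, 2CPA, 2CPB, PRXQ and PRXIIE) had their highest CPM in replicate 3 in both groups. The same held for APX1, APX3 and GPX8 of other compartments, and the share over all genes was not counted. The plastid median was 0.22 without Mock replicate 3, 0.21 without RGF1 replicate 2 and -0.31 without RGF1 replicate 3.

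The other genes of these pathways were also without calls. Of 47 genes in 5 lists (partners in the ascorbate and glutathione cycle, ascorbate synthesis, other thioredoxins, glutaredoxins and peroxiredoxins, copper economy, and mitochondrial oxidative stress), 33 were tested, and 0 were called higher and 0 lower in edgeR. At an unadjusted edgeR p below 0.05, 1 was higher and 0 were lower, against 4.26% and 3.50% of all genes tested. The higher gene was AOX1A, the alternative oxidase that lowers electron pressure in mitochondria. It stood at 11.0, 32.7 and 14.1 CPM under Mock and 32.9, 55.2 and 31.6 under RGF1. Its log2 fold change was 1.05 ± 0.44 (SE), with edgeR adjusted p = 0.575. All 5 tested genes of the mitochondrial list were above 0, with a median of 0.88. That list summed to 155 to 235 CPM under Mock and 265 to 310 under RGF1, with no overlap. The ascorbate and glutathione cycle list, at 243 to 263 and 278 to 347 CPM, did not overlap either. Sums of the other lists overlapped. Of the 8 tested copper genes, 3 were above 0, with a median of -0.55. Glutathione reductase GR1, which regenerates glutathione in the cytosol and peroxisome, measured 145, 158 and 156 CPM with water and 192, 237 and 203 with the peptide, with no overlap and edgeR adjusted p = 0.663. GR1, GME and SPL7 were named after their values were seen. SPL7, the regulator of copper deficiency, had a log2 ratio of RGF1 to Mock of 0.13 ± 0.31 (SE).

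Among markers of other cell types, 6 were of mature xylem. They summed to 33.4 to 51.2 CPM under Mock and 12.6 to 26.6 CPM in the RGF1 libraries, with no overlap. Of these, 4 were tested, with 0 called and 0 with a log2 fold change above 0. XCP2 had the highest level, with means of 30.2 CPM under Mock and 11.4 under RGF1. Its log2 fold change was -1.41, with an unadjusted edgeR p of 0.00735 and an adjusted p of 0.325. That of IRX5 was -0.023. The 7 markers of root hairs summed to 24.0 to 66.1 CPM under Mock and 41.8 to 66.6 CPM under RGF1. Of these, 4 had log2 fold changes above 0, and 0 were called in edgeR. RHS19 had 1.93, 1.01 and 0 CPM under Mock and 2.81, 19.1 and 14.3 under RGF1, a log2 fold change of 3.55. Its adjusted p was 0.245 in edgeR, 0.563 in limma voom and 0.00808 in DESeq2, on 27 Mock counts in all. COBL9 had -0.86. For root cap the sums were 20.5 to 48.8 and 20.5 to 50.9 CPM, and for mature endodermis 9.10 to 67.3 and 15.3 to 20.0 CPM. The levels of CAT1, TRXh5 and PRXQ were in or below the range of these sums, while VTC5 reached 69.9 CPM in RGF1 replicate 3, above them. The part of these cell types, and of the meristem markers, in the values of the redox genes was not tested.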

How the data were processed

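RNA-seq read counts per gene were deposited by the authors, 1 table per library, as raw whole numbers. TopHat2 2.1.1, HTSeq, DESeq2 and the build TAIR10 are listed, without roles, in the submitters' processing notes. Whether counting used strand, and which annotation release, is not given in the sources used here, so reads of the 12 counted genes that overlap a member cannot be told apart from its own where strands were ignored. Per the labels' protocols, 50 ng of total RNA with an RNA integrity number over 9.0 was amplified before library preparation. Without molecular identifiers, low counts may carry amplification noise. The labels describe separate RNA extractions and do not say whether plates or days differed, so the p-values cover the spread of these samples, which may be partly technical.

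All 30424 genes entered edgeR 4.0.16 (R 4.3.3) with TMM scaling, its default filter (16737 genes kept) and the quasi-likelihood F test over 6 libraries, with Benjamini-Hochberg adjustment over all genes tested; 39 of 43 members passed the filter. Standard errors and 95% intervals came from the F statistic and its degrees of freedom, and the intervals are not adjusted for the number of genes. The test was checked on simulated data first. At an adjusted p below 0.05 it called 6% of genes with a simulated 2-fold change and 54% with 4-fold (50 genes each). Most 2-fold changes would thus be missed, and 0 calls do not show that the genes were unchanged. Alternatives were other scalings, no filter, DESeq2 1.42.0, limma voom 3.58.1, a replicate block, and leaving out each library. Same-numbered Mock and RGF1 libraries had correlated deviations from their group means over genes (0.18, 0.21 and 0.30 for numbers 1 to 3), so the numbers were taken to pair the libraries; the labels do not say what they mark. Positions, exon lengths and miRNAs came from the TAIR10.1 RefSeq annotation, whose identifiers matched all 43 members. BLAST 2.17.0 at 95% identity over 100 bp found, besides overlapping neighbours, near copies of FSD2 stretches only. Names such as PRXIIB (TPX1), TRXh3 (TRX3), TRXh5 (TRX5), APX4 (TL29), MDAR3 (MDHAR), 2CPA and PRXIIE are those in common use, and compartments were assigned from general knowledge. Values in every library are given for members with an unadjusted p below 0.05, without overlap, or leading their class, and for others named beside them after their values were seen. The members and lists were chosen with earlier results of these data known.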

Additional observations from a re-analysis of the deposited data

How the results depend on the processing

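The count of called members was 0 in each direction under every alternative run: DESeq2 size factors, total counts only, no low-count filter, DESeq2, limma voom, the replicate block and each library left out. The lowest adjusted p of a member in any of them was 0.0840, for MDAR3 with the block, and the block changed no call. The number of members higher at an unadjusted p below 0.05 went from 2 to 5 with the block and, with a library left out, was between 0 (RGF1 replicate 1 omitted) and 4 (RGF1 replicate 3 omitted); the number lower went from 0 to 1 with DESeq2 and ranged from 0 to 1 with a library left out. Over all genes, 78 were called higher and 5 lower, 208 and 94 with the block, 219 and 72 with DESeq2, 176 and 46 without the filter, and 39 and 1 without RGF1 replicate 1.

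Of the 39 members, 19 kept the sign of their log2 fold change in every alternative, CAT1, VTC5, PRXQ, CSD1, TRXh5 and MDAR1, MDAR2, MDAR3, MDAR4 and MDAR6 among them, and 20 changed it in at least 1. CSD2 was -0.010 with total counts only. TAPX was -0.31 with limma voom and -0.11 with the block, GPX8 -0.16 and -0.092, and PRXIIE 0.031 and 0.0093. With a library left out, the ranges were -0.49 to 0.67 for CSD2, -2.19 to 0.22 for FSD1, -0.49 to 0.30 for FSD3, -0.099 to 0.028 for MSD1, -0.25 to 0.061 for CAT2, -0.11 to 0.29 for APX1, -0.51 to 0.29 for APX4, -0.74 to 0.55 for TAPX, -0.51 to 0.36 for GPX1, -1.03 to 0.35 for GPX2, -0.51 to 0.052 for GPX3, -0.058 to 0.53 for GPX6, -0.37 to 0.64 for GPX8, -0.35 to 0.20 for 2CPA, -0.74 to 0.23 for 2CPB, -0.0077 to 0.29 for PRXIIB, -0.26 to 0.27 for PRXIIE, -0.58 to 0.082 for PRXIIF, -0.086 to 0.34 for NTRB and -1.55 to 0.41 for VTC2. The class median of the ascorbate peroxidases ranged from -0.072 to 0.29, that of VTC2 and VTC5 from -0.29 to 0.61 and that of the plastid genes from -0.31 to 0.22. The cause was not tested. Among members with 95% intervals within 2-fold, the lowest Mock mean was 27.7 CPM. MDAR3, MDAR6, SAPX, GPX8, CSD2, CCS, VTC5 and GPX3 were above that level and had intervals past 2-fold.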
